A study of Mus musculus with 2 samples.

Results

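The 10 genes described here are members of the Sox family of transcription factors, chosen by name from 4 of its groups: Sox2 and Sox3 (group B), Sox4 and Sox11 (group C), Sox8, Sox9 and Sox10 (group E) and Sox7, Sox17 and Sox18 (group F). They are 10 of the 19 Sox genes with counts, and 10 of the 25814 genes with counts in either library. All 10 had counts in both libraries. Single-cell RNA was measured in Nes-GFP+ cells, that is, cells carrying GFP under regulatory elements of Nestin, an intermediate filament gene used as a mark of neural stem cells (NSCs). The cells were sorted from the brain and from the lung of mice aged about 6 weeks, labelled as strain C57BL/6 (the study's methods describe wild-type stock of CD1 or mixed CD1 and C3H background, with which its transgenic lines were bred). Both groups carried the same reporter and the labels name no treatment. The reporter is no lineage mark, since it labels vessel wall cells as well as neural cells. Each tissue gave 1 library, so no value below has a replicate, tissue and library cannot be told apart, and no p-value is given. The study asked whether NSCs exist outside the central nervous system.

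All Sox proteins bind DNA through an HMG box, and usually act together with a partner factor. Group B members keep neural progenitors undifferentiated, group C members act in newborn neurons, and group E members direct glial and neural crest fates, with Sox9 in astrocytes and progenitors and Sox10 in oligodendrocytes and Schwann cells. Group F members act in endothelial cells, where they take part in the choice between arterial, venous and lymphatic fate and can stand in for each other.

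The cell thresholds of the study's methods, applied here, left 4151 of 4640 deposited brain barcodes with a median of 4209 unique molecular identifiers (UMIs, 1 per captured RNA molecule) and 5608 of 5981 lung barcodes with a median of 5585 UMIs. The cell numbers in the study are those of all deposited barcodes, so the cells used here are a part of them. A cell entered a class when it had a UMI of at least 3 of the 8 markers of that class and led the next class by at least 2 markers, and no Sox gene was a marker. This placed 3747 brain cells (90.3%) and 3468 lung cells (61.8%) in a class. Classes carry the ending "-like" because the names rest on markers alone. In the endothelial-like class of the brain each marker was found in at least 76.4% of its cells and in at most 3.54% of the others. Not all classes were as clean. The marker Fgfr4 was found in 4.93% of lung matrix fibroblast-like cells, and Pdgfrb in 98.7% of lung pericyte-like and 54.8% of other lung cells. Of the 8 OPC-like markers (oligodendrocyte progenitors), 1 was not in the table, so that gate ran on 7. Some classes held many cells that only just passed the gate, by the number of markers or by the lead. In the lung these were 69.5% of matrix fibroblast-like, 62.1% of myofibroblast-like, 49.6% of smooth muscle-like and 35.8% of pericyte-like cells. In the brain they were 43.9% of activated progenitor-like, 34.1% of mature oligodendrocyte-like and 28.3% of OPC-like cells, and 48 of the 57 activated progenitor-like cells shared a cluster with 198 neuroblast-like cells. Sox levels are given as CPM, a gene's UMIs scaled to the summed UMIs of a class, with exact 95% Poisson intervals in brackets. All intervals cover counting error only. Levels are compared between classes for the same gene, never between genes. The libraries shared 11 barcodes after filtering.

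The Sox members and their surroundings are as follows (build GRCm38, GENCODE annotation). Sox2 is a single-exon gene on chromosome 3 (34650405 to 34652461, plus strand) inside the long noncoding gene Sox2ot on the same strand, so reads of the 2 genes may have been split in counting. Sox3 lies on chromosome X (60891366 to 60893430, minus strand), Sox4 on chromosome 13 (28948919 to 28953713, minus strand) and Sox11 on chromosome 12 (27334264 to 27342574, minus strand), each with 1 exon. Sox8 (chromosome 17, 25565892 to 25570686, minus strand), Sox9 (chromosome 11, 112782224 to 112787760, plus strand) and Sox10 (chromosome 15, 79154908 to 79165240, minus strand) have up to 3, 3 and 5 exons. Sox7 is on chromosome 14 (63943673 to 63950732, plus strand), Sox17 on chromosome 1 (4490931 to 4497354, minus strand) and Sox18 on chromosome 2 (181669836 to 181671640, minus strand). Sox4, Sox8 and Sox17 overlap a noncoding gene on the other strand, and the strand setting of the counting was not given in the sources used here.

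Promoters were available for 4 of the 10 members in RefSeq's tables for GRCm38.p6. Those of Sox2, Sox4 and Sox11 are shown because these members carried the levels of the neurogenic classes described next. Each window runs from 250 bases before to 50 bases after the RefSeq start, 5′ to 3′ on the gene's strand, and capitals mark each match to the E-box CANNTG, the site type bound by bHLH factors. The windows are chr3:34649745-34650044 for Sox2, chr13:28953650-28953949 for Sox4 and chr12:27342669-27342968 for Sox11.
Sox2: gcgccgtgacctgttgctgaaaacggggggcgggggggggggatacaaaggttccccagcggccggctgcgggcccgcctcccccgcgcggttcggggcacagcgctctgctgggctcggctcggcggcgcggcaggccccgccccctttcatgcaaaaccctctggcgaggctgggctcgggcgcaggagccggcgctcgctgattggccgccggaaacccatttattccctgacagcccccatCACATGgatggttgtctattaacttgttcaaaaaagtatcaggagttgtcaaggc
Sox4: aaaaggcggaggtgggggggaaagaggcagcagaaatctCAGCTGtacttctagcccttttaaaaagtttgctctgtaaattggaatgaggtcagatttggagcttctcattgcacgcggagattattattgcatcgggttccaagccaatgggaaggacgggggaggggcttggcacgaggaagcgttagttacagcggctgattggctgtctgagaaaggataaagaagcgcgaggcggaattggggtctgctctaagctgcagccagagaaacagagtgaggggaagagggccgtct
Sox11: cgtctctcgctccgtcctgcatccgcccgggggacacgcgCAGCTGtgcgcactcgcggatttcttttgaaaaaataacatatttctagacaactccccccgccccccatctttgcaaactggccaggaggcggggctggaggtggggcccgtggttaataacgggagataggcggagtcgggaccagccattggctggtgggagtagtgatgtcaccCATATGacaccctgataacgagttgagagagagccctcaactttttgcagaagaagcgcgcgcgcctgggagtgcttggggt
Sox2 and Sox4 held 1 E-box each and Sox11 held 2. The E-box reads the same on both strands and was found in 72.3% of 32851 promoters of the same length, so these matches are a description only. A Sox motif (ACAANG, or CNTTGT on the other strand) was found once in the Sox2 window and not in the windows of Sox4 and Sox11, against 41.2% of all promoters.

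**Figure D1:**
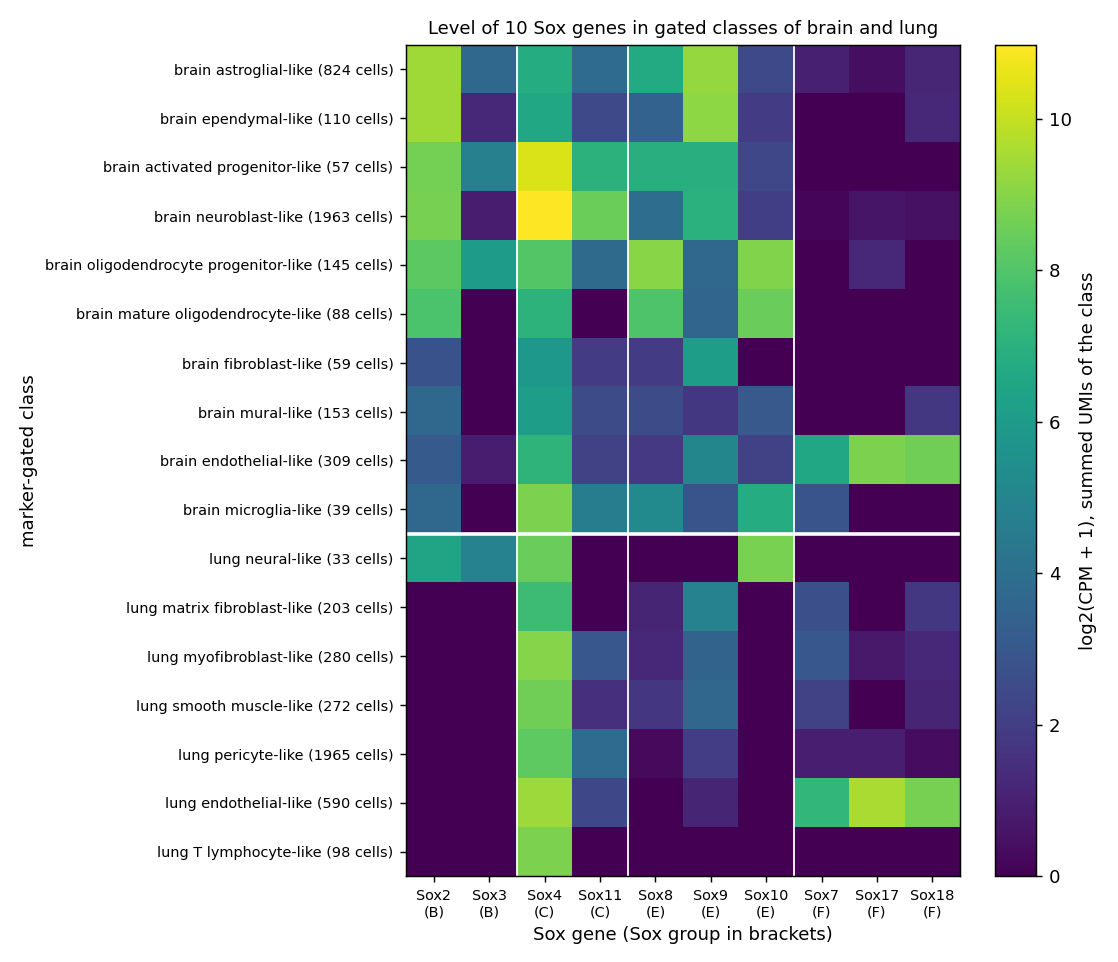
Colour gives log2(CPM + 1) of each Sox gene (columns, with the Sox group in brackets) in each marker-gated class (rows, with the number of cells), brain above and lung below the white line. Group F stands out in the endothelial-like classes of both tissues, groups B and E in the neural classes of the brain, and Sox4 has a level above 0 in all 17 classes drawn.

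The plot of all classes shows which classes of Nes-GFP+ cells held each Sox gene. Sox2 was found in the neural classes of the brain and in a single small class of the lung. Sox4 had UMIs in every gated class, at 2021 CPM (1993 to 2049) in brain neuroblast-like cells, its highest level, and at 57.2 CPM (34.9 to 88.3) in brain fibroblast-like cells, its lowest among gated brain classes. A Sox4 UMI was found in 22.0% of brain fibroblast-like and 17.0% of mural-like cells, and 3 of the 153 mural-like cells had a UMI of the neuroblast gene Dcx. No class was taken to lack Sox4, so the part of free RNA in these low levels was not tested. Sox7, Sox17 and Sox18 were nearly restricted to endothelial-like cells. In likeness across the 15 classes of at least 50 cells, the group F genes followed each other closely (Pearson r of log2(CPM + 10) 0.981 to 0.996), as did Sox8 and Sox10 (r = 0.834), while Sox4 and Sox11, which share a group, had r = 0.70. Other pairs within a group were less alike, with r = 0.569 for Sox2 and Sox3, 0.257 for Sox8 and Sox9 and -0.147 for Sox9 and Sox10. Some pairs across groups were more alike than these, such as Sox3 and Sox8 (r = 0.793). These correlations are over classes that share 2 libraries and are given as a description.

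The first comparison followed group B and E genes from astroglial-like cells to activated progenitor-like and neuroblast-like cells of the brain. The astroglial-like class (824 cells) holds quiescent NSCs and astrocytes, which its markers do not separate. Activated progenitor-like cells (57 cells) were gated on progenitor and replication genes, and neuroblast-like cells (1963 cells) on genes of migrating young neurons. Sox2, the group B factor used to mark NSCs, stood at 678 CPM (650 to 707) in astroglial-like cells, 414 CPM (359 to 474) in activated progenitor-like cells and 422 CPM (409 to 435) in neuroblast-like cells. The first step was 0.610 times (0.526 to 0.704), an interval that excludes 1 at under 2-fold. The latter levels did not differ beyond counting error (ratio 1.02, 0.887 to 1.18), so Sox2 RNA was present through to neuroblast-like cells. Of neuroblast-like cells 73.8% had a Sox2 UMI, against 2.91% of endothelial-like cells, the class taken to lack Sox2, at median depths of 4467 and 3784 UMIs. Sox2ot, the overlapping gene, was at 130 CPM in astroglial-like, 447 CPM in neuroblast-like and 659 CPM in mature oligodendrocyte-like cells. Over these 3 classes it was higher where Sox2 was lower, though it was at 129.8 CPM in activated progenitor-like cells, and the part of split reads in the Sox2 order was not tested.

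Sox9 is the group E factor of astrocytes and neural progenitors. Its level was 598 CPM (572 to 625) in astroglial-like cells, 120 CPM (91.1 to 154) in activated progenitor-like cells and 129 CPM (122 to 136) in neuroblast-like cells. Activated progenitor-like cells thus had 0.200 times (0.152 to 0.259) the astroglial-like level, and the step to neuroblast-like cells was within counting error (1.07 times, 0.827 to 1.42). Both factors were found together in 528 astroglial-like cells, which were 81.2% of those with Sox2 and 86.0% of those with Sox9. With each cell thinned to 2000 UMIs, the share of cells with a Sox9 UMI was 67.5% of astroglial-like cells, 19.6% of activated progenitor-like cells and 17.1% of neuroblast-like cells. For Sox2 the shares were 71.3%, 48.2% and 51.6%, against 78.9%, 84.2% and 73.8% without thinning. Thinning left out 180, 1 and 147 cells of these classes as too shallow, and the unthinned shares were 74.5%, 50.9% and 33.2% for Sox9.

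Sox3, in group B with Sox2, and Sox8, in group E with Sox9, were lower in neuroblast-like cells than in the other classes of this comparison. Sox3 had 11.8 CPM (8.32 to 16.1) in astroglial-like cells, 26.4 CPM (14.03 to 45.1) in activated progenitor-like cells and 0.826 CPM (0.357 to 1.63) in neuroblast-like cells, from 38, 13 and 8 UMIs. Sox8 stood at 102 CPM (91.7 to 114), 119.6 CPM (91.1 to 154) and 14.1 CPM (11.8 to 16.6). From activated progenitor-like to neuroblast-like cells, Sox3 was 31.9-fold lower (12.2 to 88.8) and Sox8 was 8.52-fold lower (6.16 to 11.6). Without the upper limit of genes per cell the ratios were 0.114 (0.0559 to 0.233) and 0.196 (0.154 to 0.252), so both were still called lower but the differences were smaller, and by the mean over cells the Sox3 ratio was 0.0165. The Sox8 step from astroglial-like cells was within counting error (1.17 times, 0.870 to 1.54). It was 0.802 times when the median ratio of genes was set to 1.

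The group C genes, factors of neuronal differentiation, ran the other way. Sox4 stood at 112 CPM (101 to 124) in astroglial-like cells, 1332 CPM (1232 to 1438) in activated progenitor-like cells and 2021 CPM in neuroblast-like cells. Sox11 stood at 13.3 CPM (9.63 to 17.9), 134 CPM (104 to 170) and 362 CPM (350 to 374). At the first step Sox4 was 11.9-fold (10.4 to 13.6) and Sox11 10.1-fold (6.75 to 15.1) higher, and at the second step they were 1.52-fold (1.404 to 1.64) and 2.71-fold (2.12 to 3.51) higher. Sox4 had a UMI in 97.0% of neuroblast-like cells and Sox11 in 75.3%, and 98.9% of the cells with Sox11 also had Sox4. Thinned to 2000 UMIs, the share with a Sox4 UMI was 12.1%, 85.7% and 94.9% over the 3 classes and that with a Sox11 UMI 2.95%, 21.4% and 50.8%. Without thinning the shares were 19.1%, 98.2% and 97.0% for Sox4 and 4.005%, 63.2% and 75.3% for Sox11.

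A gene is called higher or lower when its ratio is at least 2-fold and its counting interval excludes 1, among genes with at least 10 UMIs over both classes. Of the 10 members, 7 passed that minimum in the comparison of activated progenitor-like with astroglial-like cells. Sox3, Sox4 and Sox11 were called higher and Sox9 lower, and 38.9% of all genes tested were called (20.1% higher and 18.8% lower). From activated progenitor-like to neuroblast-like cells 7 members passed, of which Sox11 was called higher and Sox3 and Sox8 lower, against 19.1% of all genes (9.16% higher and 9.98% lower). Activated progenitor-like cells were deep, with a median of 9214 UMIs, and setting the median ratio of genes to 1 lowered all ratios of the first step by 0.54 on the log2 scale. The Sox4 ratio was then 8.17, Sox3 was no longer called higher and Sox2, at 0.419 times, was called lower. Sox3 also lost its call under a looser gate (1.90 times) and without the upper limit of genes per cell (1.19 times), while by the mean over cells its ratio was 4.69 (2.29 to 8.99).

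The neuronal genes listed beside group C were higher at the first step and mixed at the second. Of 7 such genes, 5 passed the minimum at the first step and all 5 were called higher, with a median log2 ratio of 2.27 against -0.05 over all genes tested. They were Insm1, a factor of intermediate progenitors (22.4-fold, 16.0 to 31.8), Tead2 (4.84-fold, 3.46 to 6.75), the neuronal RNA-binding proteins Elavl3 (4.40-fold, 3.43 to 5.62) and Elavl4 (6.90-fold, 5.29 to 8.99), and the homeobox factor Prox1 (4.03-fold, 2.51 to 6.38). At the second step 4 of 7 were called higher, namely Elavl3, Elavl4, Neurod1 and Prox1, while Tead2 was called lower at 0.327 times (0.251 to 0.431). Insm1 was not called there. Of the 5 POU and Pax factors that partner group B proteins, none was called at the first step and Pou3f4 was called higher at the second (2.53-fold, 1.85 to 3.55). Among the 9 other Sox genes, Sox1 (group B, 2.02-fold, 1.64 to 2.47) and Sox12 (group C, 2.62-fold, 1.63 to 4.12) were called higher and Sox6 (0.482 times, 0.276 to 0.789) lower at the first step. At the second step Sox5 was called higher and Sox13 and Sox21 lower.

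**Figure D2:**
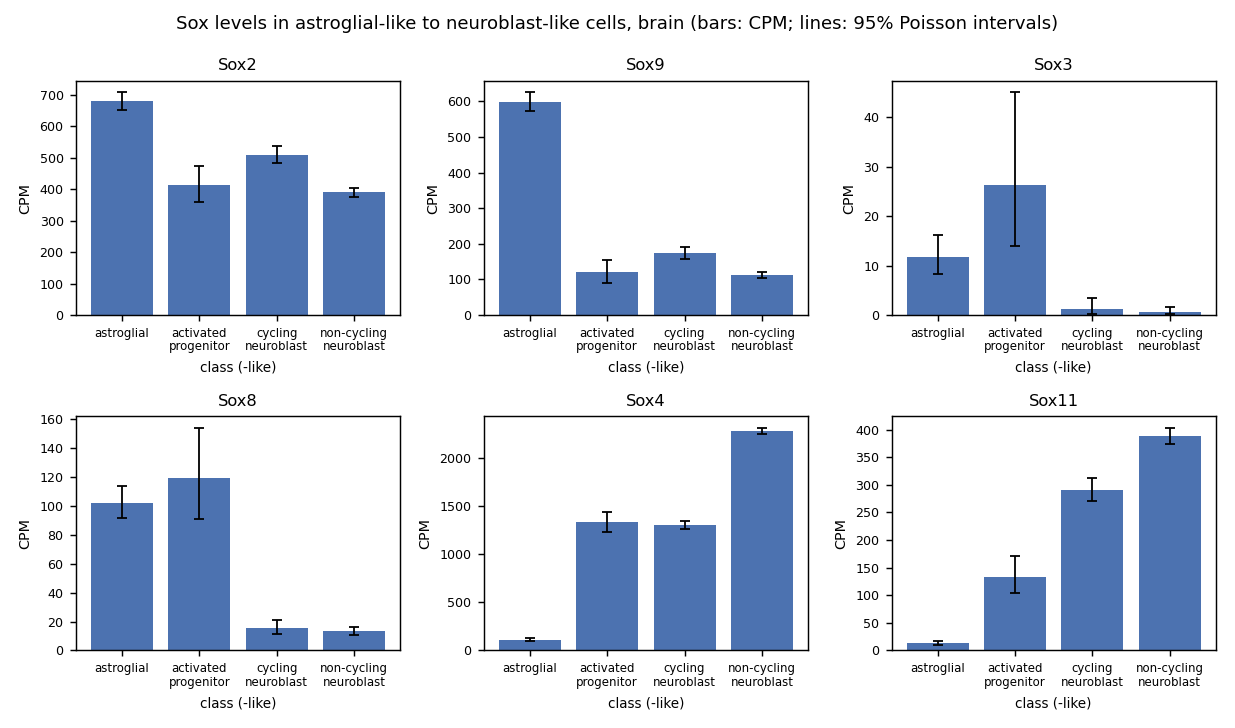
Bars give CPM of 6 Sox genes in astroglial-like, activated progenitor-like, cycling neuroblast-like and non-cycling neuroblast-like cells of the brain, with 95% Poisson intervals as lines. Sox9 is highest in astroglial-like cells, Sox3 in activated progenitor-like cells, and Sox4 and Sox11 in non-cycling neuroblast-like cells.

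Neuroblast-like cells were also compared by cell cycle, where no member was called. The 333 cycling cells (a UMI of at least 3 of 8 cycle genes) and 1630 non-cycling cells had 1306 CPM (1262 to 1350) and 2285 CPM (2250 to 2320) of Sox4, and 290.5 CPM (270.2 to 312) and 389 CPM (374 to 404) of Sox11. Sox2 and Sox9 went in the opposite direction, with 509 CPM (482 to 537) and 174 CPM (158 to 191) in cycling cells and 389.9 CPM (375 to 405) and 112 CPM (104 to 119.8) in non-cycling cells. The ratios, cycling over non-cycling, were 0.571 (0.551 to 0.593) for Sox4, 0.747 (0.689 to 0.810) for Sox11, 1.31 (1.22 to 1.395) for Sox2 and 1.56 (1.38 to 1.75) for Sox9. None reached 2-fold, so 0 of the 6 members tested were called, against 15.0% of all genes (7.23% higher and 7.80% lower). Pax6 (2.12-fold, 1.93 to 2.31) and Insm1 (3.18-fold, 2.90 to 3.48) were called higher in cycling cells, and Neurod1 and Neurod2 lower, with 0 UMIs in cycling cells. Cycling cells were also deeper, at a median of 8171 against 4180 UMIs.

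Clusters made without Sox genes gave a finer view of the same cells. The largest neuroblast clusters were cluster 0 (692 cells), with 1508 CPM of the noncoding gene Meg3, and cluster 1 (656 cells), with 4178 CPM of Meg3. Sox4 stood at 2112 CPM (2063 to 2162) and 2876 CPM (2809 to 2945) in these clusters, whereas Sox9 stood at 129 CPM (117 to 142) and 53.0 CPM (44.2 to 63.1). Sox11 was at 417 CPM (395 to 439.6) in cluster 0 and 348 CPM (325 to 373) in cluster 1, and was highest in the small cluster 15 (70 cells), at 474 CPM (411 to 543), where Sox4 was at 2348 CPM (2207 to 2497). In cluster 7, which had the highest level of the mitotic gene Top2a, Sox2 reached 540.1 CPM (503 to 579) and Sox4 1204 CPM (1149 to 1261). These clusters were picked after their values were seen, and no test is attached to them.

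The astroglial-like class was then divided into cells with Thbs4 or Gfap and without Slc7a10 and Cxcl14 (99 cells) and the reverse (415 cells). Thbs4 and Gfap mark adult NSCs among other cells, and Slc7a10 and Cxcl14 parenchymal astrocytes. Sox2 did not differ beyond counting error, at 732 CPM (643 to 830.3) and 688 CPM (649 to 728), nor did Sox9, at 638 CPM (555 to 730.4) and 578 CPM (542 to 615). Sox3 had 12 UMIs in each part, that is 36.3 CPM (18.8 to 63.4) in 11 of 99 cells and 7.07 CPM (3.65 to 12.4) in 12 of 415 cells. It was the 1 member called of 6 tested (5.13-fold higher, 2.11 to 12.5), against 15.0% of all genes (10.3% higher and 4.73% lower). Sox8 was lower with Thbs4 or Gfap (0.654 times, 0.421 to 0.978) without reaching 2-fold. Sox11 had 6 and 10 UMIs with an interval that includes 1 (3.08 times, 0.920 to 9.35), and was called higher in 3 alternatives. Sox1, like Sox3 a group B gene, was also called higher (2.02-fold, 1.52 to 2.68). Of the neuronal genes listed beside group C, 3 of 5 tested were called higher in the same cells, namely Insm1, Prox1 and Tead2, and the list had a median log2 ratio of 2.10 against 0.15 over all genes tested.

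Ependymal-like cells, the ciliated lining of the ventricle, had Sox2 and Sox9 levels within counting error of those of astroglial-like cells on the CPM scale, and less Sox8. In 110 cells Sox2 stood at 675 CPM (615 to 738) and Sox9 at 559 CPM (505 to 617), with ratios to astroglial-like cells of 0.995 (0.899 to 1.10) and 0.934 (0.836 to 1.04). With the median ratio of genes set to 1 these were 0.881 (0.796 to 0.974) and 0.828 (0.741 to 0.923), and by the mean over cells Sox9 was at 0.864 (0.773 to 0.964), intervals that exclude 1. Sox8 was at 10.0 CPM (4.02 to 20.6) from 7 UMIs and was 10.2-fold lower (4.91 to 25.7). Sox3 had 1 UMI. These were the 2 members called lower of 7 tested, against 35.9% of all genes called (18.8% higher and 17.1% lower). The partner factors Pax6, Pou3f2 and Pou3f3 were called lower too (3 of 5), as were Nfib, Nkx2-2 and Nkx6-2 among 5 glial factors tested.

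The next comparison concerned group E in the oligodendrocyte lineage. Sox10 drives myelin genes, Sox8 acts beside it, and Sox9 acts earlier, in progenitors. In oligodendrocyte progenitor-like cells (OPC-like, 145 cells) Sox10 stood at 482 CPM (434 to 534) and Sox8 at 517 CPM (468 to 571), each the highest level of its gene in any class. Sox9 had 9 UMIs, or 11.7 CPM (5.36 to 22.3), a level within counting error of that in mature oligodendrocyte-like cells. A UMI of Sox10 was found in 116 of 145 OPC-like cells and one of Sox8 in 100, against 1.29% and 0.971% of brain endothelial-like cells, the class taken to lack them, at median depths of 5347 and 3784 UMIs. Of the cells with Sox8, 91.0% also had Sox10. Sox3 was highest here as well, at 65.2 CPM (48.4 to 85.9) in 43 of 145 cells, and Sox2 was at 299.8 CPM (262 to 341).

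In mature oligodendrocyte-like cells (88 cells) Sox3, Sox8 and Sox11 were called lower, of which Sox3 was called under every alternative run. Sox11 lost its call with the looser gate and by clusters, and Sox8 with the looser gate (0.545 times). Sox10 stood at 356 CPM (308 to 409), Sox8 at 247 CPM (207 to 292), Sox2 at 232 CPM (194 to 276) and Sox4 at 138 CPM (109 to 173), against 261 CPM (226 to 299) of Sox4 in OPC-like cells. Sox3 and Sox11 had 0 UMIs, which allows up to 5.44 CPM at 3 counts over the class, so that against this floor Sox3 was at least 11.97-fold and Sox11 at least 2.39-fold lower. With counting error in both classes, the intervals of these ratios reach up to 0.107 and 0.621. Sox3, Sox11 and Sox8 (2.10-fold lower, 1.72 to 2.57) were the 3 of 7 members called, all lower, against 37.1% of all genes called (8.44% higher and 28.6% lower). Sox10 was 1.36-fold lower (1.14 to 1.62). Among the listed glial factors, the myelin regulator Myrf (5.28-fold, 3.34 to 8.66) and Nkx6-2 (66.1-fold, 30.01 to 182) were called higher, and Nfia, Nfib and Nkx2-2 lower. The other Sox genes Sox5, Sox6 and Sox21 were called lower. When the median ratio of genes was set to 1, which raised these ratios by 0.39 on the log2 scale, the Sox2 ratio went from 0.775 to 1.01 and that of Sox10 from 0.738 to 0.966. Sox8, at 0.625 times, was then not called either, nor was it by the mean over cells (0.671 times). The mean over cells also turned the Sox2 ratio to 1.46 (1.17 to 1.82), so no direction is given for Sox2.

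The mature oligodendrocyte-like gate held cells of several clusters, and Sox levels differed between them. Of its 88 cells, 29 were in cluster 18, the cluster with the highest level of the myelin gene Mog (3610 CPM), 47 in the shallow cluster 11 and 9 in cluster 14. Cluster 14 (105 cells) had the highest level of Gpr17 (2606 CPM), a receptor of committed oligodendrocyte precursors, and cluster 12 (121 cells) the highest of Pdgfra (1501 CPM), the receptor that marks OPCs. Sox4 stood at 250.1 CPM (207 to 299.8) in the Pdgfra cluster, 599 CPM (549.9 to 652) in the Gpr17 cluster and 7.75 CPM (1.599 to 22.7) in the Mog cluster. Sox2 followed the same course, at 333 CPM (283 to 390.1), 506 CPM (461 to 555) and 74.9 CPM (50.2 to 108). Sox8 stood at 378 CPM (325 to 438), 512 CPM (466 to 561) and 183 CPM (143 to 231), and Sox10 at 449 CPM (390.3 to 514), 547 CPM (500.0 to 598) and 276 CPM (227 to 334). Sox3 was highest in the Pdgfra cluster, with 85.5 CPM (61.1 to 116), 33.3 CPM (22.5 to 47.5) and 0 UMIs, as was Sox11, from 8, 3 and 0 UMIs.

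From the Gpr17 to the Mog cluster, Sox4 had 0.0129 times (0.00266 to 0.0380), Sox2 0.148 times (0.0980 to 0.216), Sox8 0.359 times (0.275 to 0.461) and Sox10 0.505 times (0.406 to 0.624) the level. Sox9 went the other way, at 4.19 times (1.26 to 15.9), from only 9 against 5 UMIs. From the Pdgfra to the Gpr17 cluster, Sox4 had 2.40 times (1.96 to 2.95), Sox2 1.52 times (1.26 to 1.83) and Sox3 0.389 times (0.234 to 0.641) the level. The clusters differed in depth, with medians of 3101, 9456 and 13775 UMIs per cell, and were chosen by their leading marker after the data were seen. The shallow cluster 11 (137 cells, a median of 1889 UMIs) had 371 CPM (304 to 449) of Sox2, 260 CPM (205 to 326) of Sox4, 465 CPM (389.6 to 551) of Sox10 and 621 CPM (533 to 719) of Sox8, so the Gpr17 cluster did not have the highest Sox8 level of these 4 clusters.

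**Figure D3:**
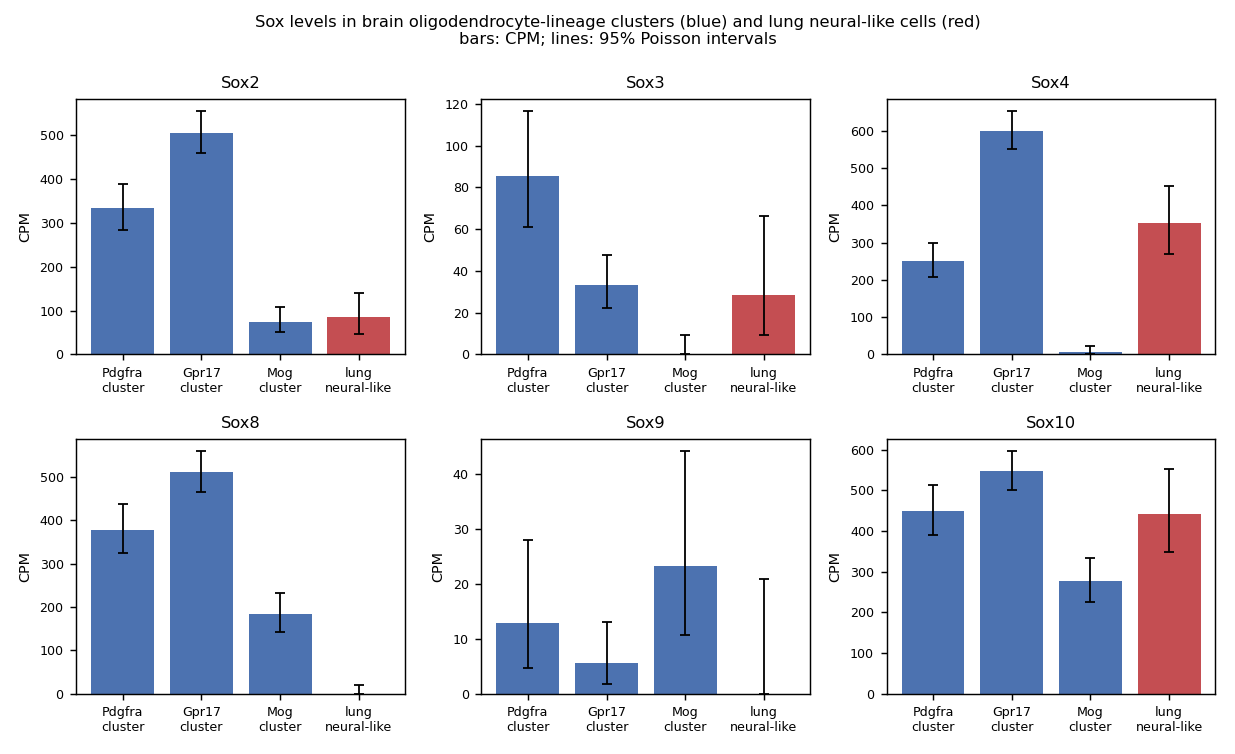
Bars give CPM of 6 Sox genes in the brain clusters with the highest level of Pdgfra, Gpr17 and Mog (blue) and in lung neural-like cells (red), with 95% Poisson intervals as lines. Of the cells drawn, Sox2, Sox4, Sox8 and Sox10 are highest in the Gpr17 cluster, and Sox8 and Sox9 have 0 UMIs in lung neural-like cells.

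The lung held a single class with transcripts of group B and of Sox10. Sox9, also of group E, was found in other lung classes, at most 28.0 CPM (20.6 to 37.3) in matrix fibroblast-like cells. The 33 neural-like cells were gated on 8 glial and neural crest markers. Of these the neural crest factor Foxd3 was found in 90.9% and the neuregulin receptor Erbb3 in 81.8% of the cells, but Cdh19 in 39.4% and Lgi4 in 15.2%. Sox10 had 78 UMIs in 25 of these cells, or 442 CPM (350 to 552), and 1 UMI in all other lung cells. Per cell, 3 cells had 1 Sox10 UMI, 8 had 2 and 14 had more. That level was 0.917 times (0.709 to 1.17) the OPC-like level of the brain and did not differ from it beyond counting error. Sox2 had 15 UMIs in 11 cells, or 85.1 CPM (47.6 to 140.3), which was 3.52-fold lower (2.09 to 6.40) than in OPC-like cells. Of the 16 Sox2 UMIs in filtered lung cells these were 15, and the other was in a cell outside every class.

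No UMI of the other group E members was found in the neural-like cells. Sox8 and Sox9 had 0 UMIs, which allows up to 17.0 CPM, so against this floor Sox8 was at least 30.4-fold lower than in OPC-like cells (the interval of the ratio reaches up to 0.0406). All 5 Sox3 UMIs of the lung were in these cells (28.3 CPM, 9.21 to 66.2). Sox4 was at 352 CPM (269.6 to 451) and Sox11 had no UMI. The Sox4 ratio to OPC-like cells was 1.35 (0.998 to 1.80) by gates and 0.727 (0.551 to 0.945) by clusters. Sox2 and Sox8 were the 2 of 6 members called, both lower, against 27.1% of all genes (9.60% higher and 17.5% lower). Of the 11 cells with Sox2, 10 also had Sox10, while 40.0% of the cells with Sox10 had Sox2. Among glial factors, Nkx2-2 and Myrf, which act in oligodendrocytes, had 0 UMIs and were called lower, and the neural crest factor Tfap2a was called higher (204 CPM against 0 UMIs in OPC-like cells). In brain astroglial-like cells, by comparison, Sox2 stood at 678 CPM and Sox10 at 4.33 CPM (2.37 to 7.27). At this number of cells a Sox8 or Sox9 level under the stated limit was not detectable. The OPC-like Sox9 level, 11.7 CPM, lies under it, so Sox9 could not be compared.

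Group F was examined in endothelial cells of both tissues. Sox7 had 108 UMIs in 309 brain endothelial-like cells (92.1 CPM, 75.5 to 111) and 516 UMIs in 590 lung endothelial-like cells (154 CPM, 141 to 168). Sox17, a factor of arterial endothelium, stood at 456 CPM (418 to 496) in brain and 768 CPM (739 to 798) in lung. Sox18, a factor of lymphatic and early vessel development, stood at 383 CPM (348 to 419.8) and 419 CPM (397 to 442). In all other gated classes of at least 50 cells the highest level of a group F gene was 6.86 CPM (3.29 to 12.6), for Sox7 in lung myofibroblast-like cells. Against pericyte-like cells of the lung, endothelial-like cells had 168 times (87.8 to 369) the Sox7, 836 times (439.5 to 1830.0) the Sox17 and 1368 times (467 to 6640.0) the Sox18 level. The share of cells with Sox17 was 71.8% in brain and 85.8% in lung endothelial-like cells, against 0.255% of neuroblast-like and 0 of 203 matrix fibroblast-like cells, the classes taken to lack it.

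Single endothelial-like cells usually held more than 1 group F transcript. In the brain 11.6% of cells had none of the 3 genes, 25.9% had 1, 48.9% had 2 and 13.6% had all 3. In the lung the shares were 4.92%, 14.9%, 42.5% and 37.6%. Median depth was higher in the lung (5354 against 3784 UMIs), and thinned to 2000 UMIs the Sox17 shares were 61.4% and 69.2%, the Sox18 shares 53.5% and 53.4% and the Sox7 shares 17.0% and 24.7%, brain first.

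Between the tissues, group F differed by less than 2-fold and Sox4 and Sox9 by more. Lung over brain, the ratio was 1.68 (1.36 to 2.08) for Sox7, 1.68 (1.53 to 1.85) for Sox17 and 1.10 (0.984 to 1.22) for Sox18. Sox4 was 4.76-fold higher (4.06 to 5.62) in lung, at 662 CPM (634 to 689.8) against 139 CPM (118 to 162), and was found in 472 of 590 against 99 of 309 cells. The lung level was not uniform. The lung cluster with the highest Gpihbp1 level, described below, had 141 CPM (106 to 183) of Sox4. That was 0.185 times the level of the cluster with the highest Vwf level. Sox9 was 27.1-fold lower in lung (9.75 to 104), with 4 UMIs in 590 cells against 38 UMIs in 30 of 309 brain cells. Sox4 and Sox9 were the 2 of 6 members called, against 22.9% of all genes (12.0% higher and 10.9% lower). Of 12 endothelial factors tested, the Notch ligand Dll4 (4.28-fold, 3.498 to 5.28) and the flow-responsive factor Klf2 (2.14-fold, 2.04 to 2.25) were called higher in lung, and Fli1 (0.432 times, 0.371 to 0.503) and the venous factor Nr2f2 (0.256 times, 0.195 to 0.337) lower. Sox2, taken as absent from endothelium, had 9 UMIs in brain endothelial-like cells (7.67 CPM, 3.51 to 14.6).

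The Sox9 UMIs of brain endothelial-like cells lay in 22 cells with 1 UMI and 8 with 2. The 30 cells with Sox9 had 20.4 CPM (4.21 to 59.7) of the astrocyte gene Aldoc and 13.6 CPM (1.65 to 49.2) of Slc1a3, against 19.5 CPM (11.9 to 30.1) and 13.6 CPM (7.46 to 22.9) in the 279 cells without Sox9. Sox2 had 1 UMI in the cells with Sox9 and 8 in those without. With 2 and 3 UMIs of the astrocyte genes in the cells with Sox9, a difference was not detectable at this depth, and the part of astrocyte RNA in the Sox9 level was not tested. Sox9 had a UMI in 9.71% of endothelial-like and 0.654% of mural-like brain cells, at median depths of 3784 and 2559 UMIs.

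**Figure D4:**
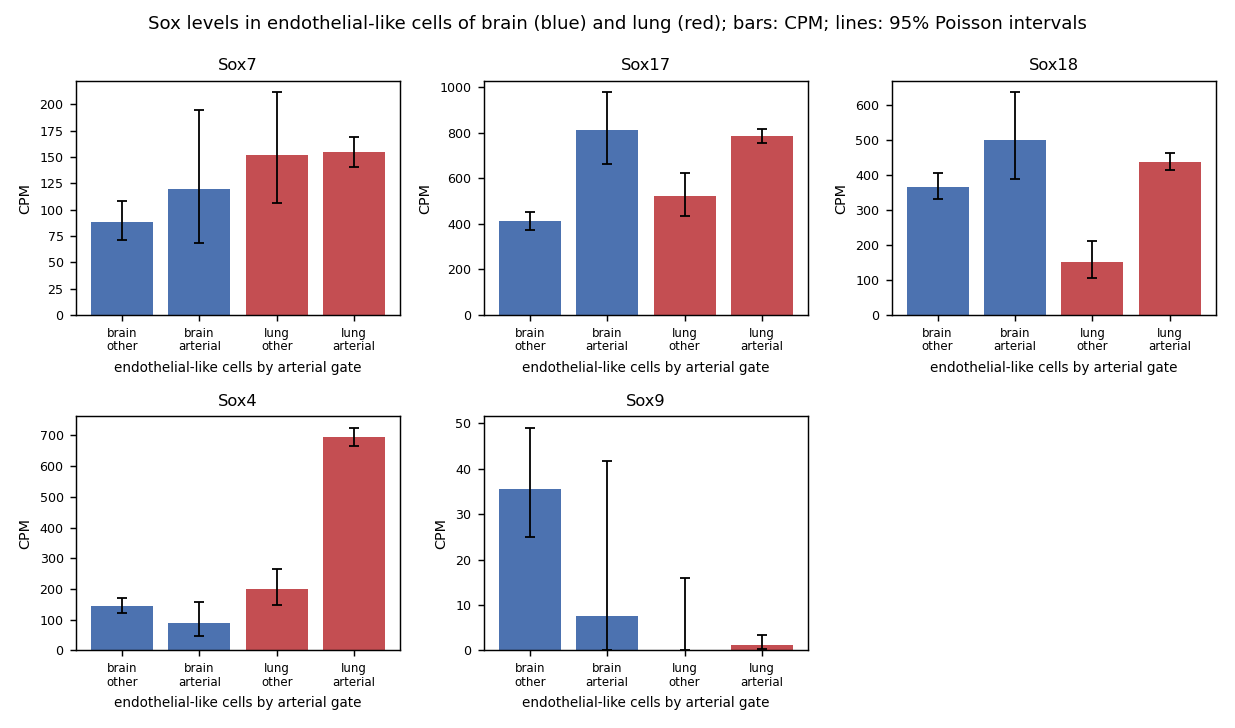
Bars give CPM of Sox7, Sox17, Sox18, Sox4 and Sox9 in endothelial-like cells outside and inside the arterial gate, brain in blue and lung in red, with 95% Poisson intervals as lines. Sox17 is higher inside the gate in both tissues, and Sox4 reaches 696 CPM only in lung cells inside the gate.

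Arterial identity was examined with a gate of at least 2 of 6 arterial genes. In the brain it took 32 of 309 endothelial-like cells. Sox17 was at 809.7 CPM (664 to 978) in 31 of these 32 cells and at 411 CPM (373 to 451) in the others, a ratio of 1.97 (1.58 to 2.44). Sox18 had a ratio of 1.37 (1.04 to 1.78), Sox7 of 1.36 (0.744 to 2.32) and Sox4 of 0.620 (0.313 to 1.11), the last from 12 UMIs in arterial cells. By clusters Sox4 was called lower (0.395 times). Although the Sox17 interval excludes 1, no member reached 2-fold by the gate, so 0 of 5 members tested were called, against 5.33% of all genes (2.99% higher and 2.35% lower). Sox17 was called higher (2.03 times) when arterial cells were those with a UMI of Gja5 or Bmx, a rule added after the data were seen (21 against 288 cells). By the gate again, these listed factors were called. Dll4 was higher (2.12-fold, 1.26 to 3.43), and Nr2f2, with 0 UMIs in the arterial part, lower.

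In the lung the same gate took 544 of 590 cells, so it separated little, and 46 cells remained as the comparison. Sox17 was at 786 CPM (755 to 818) inside and 522 CPM (432 to 624) outside the gate, a ratio of 1.51 (1.25 to 1.83). Sox4 (3.48-fold, 2.60 to 4.77) and Sox18 (2.88-fold, 2.06 to 4.16) were the 2 of 5 members called higher, against 8.93% of all genes (4.74% higher and 4.20% lower). With arterial cells defined by a UMI of Gja5 or Bmx, a narrower rule added after the data were seen (404 against 186 cells), the ratios of Sox4 and Sox18 were 1.75 and 1.43, and neither was called. Division of the lung endothelial-like cells into those with a UMI of Ednrb or Apln and those with neither gave 337 and 253 cells. The ratios were 1.20 (1.10 to 1.31) for Sox4, 1.17 (1.08 to 1.27) for Sox17 and 1.21 (1.08 to 1.35) for Sox18. None of 5 members was called there, against 3.03% of all genes (1.02% higher and 2.02% lower).

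Clusters made without Sox genes also divided the lung endothelial-like cells. The cluster with the highest Vwf level (397 cells, 500.4 CPM of the arterial gap junction gene Gja5) had 763 CPM of Sox4 (726 to 801), and the cluster with the highest Gpihbp1 level (73 cells, 38.4 CPM of Gja5) had 141 CPM (106 to 183). The latter cluster had 0.185 times (0.138 to 0.241) the Sox4, 0.849 times (0.744 to 0.965) the Sox17, 0.772 times (0.641 to 0.922) the Sox18 and 0.733 times (0.515 to 1.02) the Sox7 level of the former. Gpihbp1 is a protein of capillary endothelium. The other endothelial cluster of the lung, cluster 12 (136 cells), had 635 CPM (585 to 689) of Sox4, 194 CPM (166 to 224) of Sox7, 639 CPM (588 to 693) of Sox17 and 319.9 CPM (284 to 359) of Sox18.

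**Figure D5:**
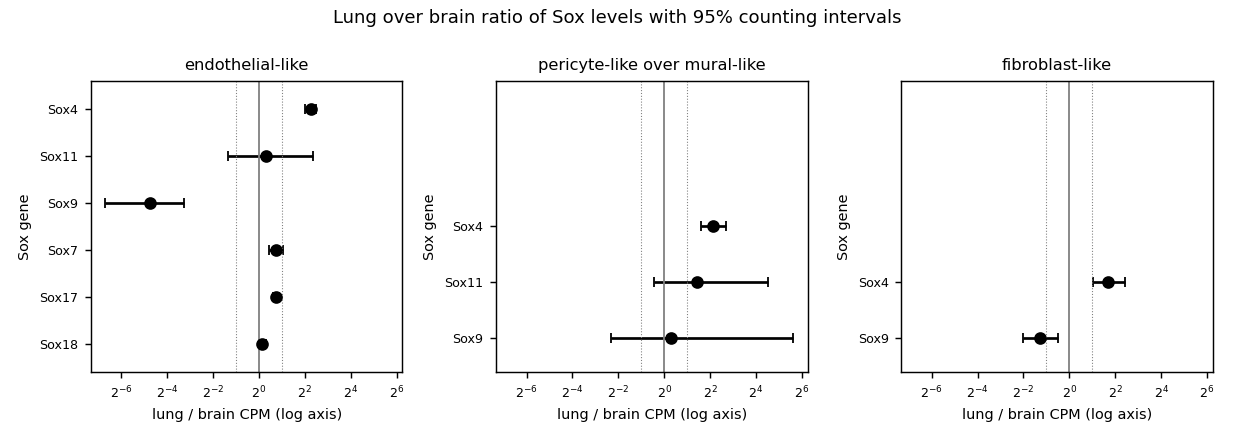
Points give the lung over brain ratio of CPM on a log axis, with 95% counting intervals, for Sox genes that had at least 10 UMIs and a UMI in both tissues, in endothelial-like cells, in pericyte-like over mural-like cells and in fibroblast-like cells. The solid line marks a ratio of 1 and the dotted lines 2-fold, and Sox4 lies to the right of the solid line in all 3 panels.

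In the mesenchymal classes Sox4 was again higher in lung. Pericyte-like cells of the lung (1965 cells) had 306 CPM (295 to 317) and mural-like cells of the brain (153 cells) 70.8 CPM (47.4 to 102), a ratio of 4.32 (3.00 to 6.46). It was the 1 member called of 3 tested, against 22.3% of all genes (10.3% higher and 12.0% lower). Sox11 had 13.3 CPM (11.1 to 15.8) in pericyte-like cells, from 130 UMIs in 121 of 1965 cells, its highest level in the lung, and 2 UMIs in mural-like cells. When clusters replaced the gates, the Sox4 ratio was 1.33 and not called. The brain mural cluster held 16 cells outside the mural-like gate with 77 Sox4 UMIs (1333 CPM) and 27 UMIs of the neuroblast gene Dcx (467 CPM), whereas its 153 gated cells had 29 Sox4 UMIs and 3 Dcx UMIs.

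Between fibroblasts, the lung matrix fibroblast-like cells (203 cells) had 184 CPM (164 to 205) of Sox4 and the brain fibroblast-like cells (59 cells) 57.2 CPM, a ratio of 3.21 (2.04 to 5.33). Sox9, a factor of cartilage and other connective tissue, stood at 28.0 CPM (20.6 to 37.3) in lung and 68.6 CPM (44.0 to 102) in brain fibroblast-like cells, a ratio of 0.408 (0.245 to 0.698). Both members tested were called, 1 in each direction, against 22.7% of all genes (10.8% higher and 12.0% lower). Within each tissue Sox9 was higher in fibroblast-like than in mural-like or pericyte-like cells, 28.1 times (4.58 to 1156) in brain and 9.46 times (5.83 to 15.6) in lung. The brain value rests on 1 Sox9 UMI in mural-like cells.

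In the lung classes drawn the order of Sox4 was endothelial-like, then myofibroblast-like at 509 CPM (473 to 547), T lymphocyte-like at 448 CPM (372 to 536), smooth muscle-like at 383 CPM (354 to 414), neural-like at 352 CPM and pericyte-like at 306 CPM. From myofibroblast-like to pericyte-like, each neighbour in this order was within counting error of the next. Matrix fibroblast-like cells came last at 184 CPM. In the brain the 39 microglia-like cells had 447 CPM (350.2 to 562) of Sox4 and 18 UMIs of Sox10 in 6 cells (110.2 CPM, 65.3 to 174). The same cells had 539 CPM (432 to 664) of Mbp, an oligodendrocyte gene, and the part of oligodendrocyte RNA in their Sox10 level was not tested. Of the 39 cells, 5 lay in cluster 11 with 47 mature oligodendrocyte-like cells, and 2 in cluster 10 with 96 neuroblast-like cells. The part of RNA of other cell types in their Sox4 level was not tested either.

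The genes most like each member across the 15 classes were named by the highest Pearson r among 8800 candidates. For the group F genes the first was Aplnr, the apelin receptor, in each case, with r = 0.985 for Sox7, 0.999 for Sox17 and 0.996 for Sox18. Erg and Myct1 came next for Sox7, Ccm2l and Tal1 for Sox17, and Cyyr1 and Ctla2b for Sox18. Sox11 was closest to Dlx2 (r = 0.956), Dlx1 (r = 0.954), both homeobox factors of interneuron precursors, and Med22. Sox2 was closest to Amer2 (r = 0.971), Rimklb and Ric3, and Sox9 to Wnk2 (r = 0.918), Cbs and Pex11a. Sox10 was closest to 1700040N02Rik (r = 0.991), the sulfatide synthesis gene Gal3st1 and Zfp365, and Sox8 to Kcnq3 (r = 0.985), Csmd2 and Col9a3. Sox3 was closest to Olfm2 (r = 0.961), Megf11 and Igsf21, and Sox4 to the translation factor Eif4g2 (r = 0.941), Fam64a and Ccar1.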

How the data were processed

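The deposited tables hold raw UMI counts of each gene in each barcode. Per the labels and the study's methods, the authors used a 3′ droplet kit, UMI-tools, STAR 2.7.1a on mm10 and featureCounts 1.6.4. The annotation version, strand setting and barcode rule were not given in the sources used here. Barcodes with over 200 and under 4000 genes and under 40% mitochondrial counts were kept (4151 of 4640 in brain, 5608 of 5981 in lung). Doublets were kept, and Scrublet (scanpy 1.11.5) called 1.06% of brain and 1.32% of lung cells. Cells were gated by markers, counts were summed per class, and ratios carry exact conditional binomial 95% intervals. Called genes differ at least 2-fold with an interval that excludes 1. No test between groups is possible with 1 library per tissue. For shares, cells were thinned to 2000 UMIs without replacement. Seurat 5.3.0 clusters (resolution 0.8, 20 components, Sox genes left out) served as an alternative to the gates. A value at 0 is bounded by 3 counts over the class.

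The step was tested on simulated counts of brain and lung endothelial-like cells over 11725 genes, where it called 100 of 100 genes changed 4-fold up, 100 of 100 changed 4-fold down and 1.22% of unchanged genes. The simulated counts held counting error alone, and the changed genes were taken from those with at least 100 UMIs. Recovery of genes with few UMIs and false calls under variation between cells or libraries were therefore not tested. Named genes are the 10 members, called genes of the lists of other Sox genes, partner factors, neuronal, glial and endothelial genes, and the 3 genes most like each member. Cluster leaders and the cell subsets behind single values were chosen after the values were seen. The members and lists were chosen with earlier results of these data known. Some marker genes are not reported here.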

Additional observations from a re-analysis of the deposited data

Results flagged for a closer look

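Cells that no marker gate took were outside every comparison, and Sox transcripts were found in them above the 3 counts used as a floor. The 404 brain cells had 460.0 CPM of Sox2, 16.5 of Sox3, 886 of Sox4, 112 of Sox11, 226 of Sox8, 130.1 of Sox9 and 186 of Sox10, while Sox7, Sox17 and Sox18 stood at 2.002, 10.0 and 8.51 CPM. In the 2140 lung cells Sox4 stood at 369.7 CPM, Sox9 at 15.8, Sox11 at 6.43, Sox17 at 6.36, Sox18 at 4.32, Sox7 at 4.16 and Sox8 at 2.04 CPM. Sox2 and Sox10 had 1 UMI each in these lung cells. For Sox8 this was most of its 37 UMIs in the lung (27), and for Sox9 209 of 327. No contrast between vessel wall classes had intervals on opposite sides of 1 in brain and lung, and no group was large enough to look for a library far from the others.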

How the results depend on the processing

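No paired analysis was possible because each tissue is 1 library. Over 13 comparisons and their alternatives, 110 of 130 counts of called members stayed within 1.5 times the stated count, and no called member changed direction. With Seurat clusters as classes the number called was 2 for the astroglial-like parts, 2 for cycling neuroblast-like cells, 5 in mature oligodendrocyte-like cells, 5 between endothelial-like cells (Sox4 ratio 3.403), 2 in pericyte-like cells and 1 for brain arterial cells (Sox4, lower). No cluster took the activated progenitor-like name, so those comparisons have no value there. The looser gate gave 1 in mature oligodendrocyte-like, 5 in endothelial-like and 2 in pericyte-like cells, and no minimum of counts gave 5 and 4 in the latter classes. A 1.5-fold rule gave 2 for the astroglial-like parts, 2 for cycling cells, 4 between endothelial-like cells and 1 for brain arterial cells. For the astroglial-like parts, removal of doublets and the mean over cells also gave 2. Without an upper gene limit 4 were called in ependymal-like cells. The Gja5 or Bmx rule, added after seeing the data, gave 1 in brain (Sox17, 21 cells) and 0 in lung. Several ratios of members that were not called moved to the other side of 1, among them Sox2 (1.46 by the mean over cells) and Sox9 (2.89 by clusters, called higher) in mature oligodendrocyte-like cells, and by clusters Sox11 between endothelial-like (0.304) and pericyte-like cells (0.439) and Sox4 in lung neural-like cells (0.727). The cause was not tested. Few UMIs limit Sox3 and Sox11, and a value at 0 is limited by the summed UMIs of its class.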
